A study of Homo sapiens with 18 samples.

Results

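The loci of 10 genes that mark universal and adventitial fibroblasts were examined in bulk ATAC-seq of the established colon fibroblast line Ccd18-Co: PI16, CD34, DPP4, CD55, DPT, MFAP5, SFRP2, CLEC3B, PDGFRA and PDGFRB. A locus was the gene body with the 10 kb upstream of its annotated start, and every consensus peak that overlapped it was a member. By this rule the loci held 122 of the 334857 peaks, and they were 10 of the 19188 protein-coding loci with a peak. The number of peaks ran from 6 at SFRP2 and 8 each at DPT and MFAP5 to 18 at PDGFRB and 23 at PDGFRA, with 9 each at CD34 and CD55, 10 at DPP4, 15 at PI16 and 16 at CLEC3B.

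The 18 libraries formed 3 groups of 6. Unstimulated cells received no cytokine. Cells of the DMSO and belinostat groups both met a cytokine mix in 3 pulses, each lasting 72 h and followed by 96 h of recovery. The mix held TNF, OSM and IL-17A at 10 ng/ml and IL-1β at 0.1 ng/ml. After 1 week of rest they were given the solvent DMSO or 250 nM belinostat, a histone deacetylase inhibitor, for 5 days, and were collected 2 weeks later. These are the amounts on the sample labels; the study's text gives other concentrations of belinostat and, in places, of IL-1β. The labels do not say whether unstimulated cells received DMSO, or whether the 6 libraries of a group came from separate cultures, so the p-values measure the spread between these libraries, which may be technical. A single line was used. DMSO minus unstimulated is the cytokine contrast, belinostat minus DMSO the belinostat contrast and belinostat minus unstimulated the residual contrast. Each group enters a pair of these contrasts, so they are not independent.

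Universal fibroblasts are PI16 and DPT expressing cells that are found in many tissues and lie in the adventitia, the connective tissue sleeve around vessels. They are thought to act as a reservoir from which more specialized fibroblasts arise, and CD34, DPP4, CD55 and CLEC3B are among the genes used to recognize them. In ATAC-seq a transposase inserts adaptors into open chromatin, so that counts in a peak report how accessible a promoter or enhancer is and not how much RNA the gene makes.

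Counts in peaks ranged from 7077321 to 11352032 per unstimulated library, from 6488975 to 8066642 per DMSO library and from 4661678 to 6370845 per belinostat library. Member peaks took between 0.0521% and 0.0613% of them. Across all peaks the changes followed peak strength. In the weakest of 20 equal bins of average log2 CPM (counts scaled to library size) the median log2 change of the cytokine contrast was 0.79, and in the strongest it was -0.37. The 10000 strongest peaks held 35.4% to 39.0% of counts in unstimulated, 31.8% to 35.2% in DMSO and 28.4% to 34.5% in belinostat libraries. This trend touches every member result, and its part in them was not tested. Scaling by the trimmed mean of M values (TMM) leaves it in place. Loess offsets for peaks, fitted to each library's trend with peak abundance, are meant to remove it. Under them the median of all peaks in the cytokine contrast was 0.015, but medians by bin were not taken, so how fully they do so was not tested. For loci, loess offsets were fitted to the trend with the summed abundance of the locus. They need not remove there a trend that follows the strength of single peaks. Values below are under TMM unless loess offsets are named. Because these are bulk libraries, fewer cells with an open site and a less open site in each cell cannot be told apart.

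Among markers of cell identity, start peaks of 8 of 9 mesenchymal genes (COL1A1, COL1A2, COL3A1, COL6A1, FN1, VIM, DCN and LUM, with none at THY1) reached between the 26.3th and the 96.1th percentile of all start peaks per kb of peak. Start peaks of 5 of 6 epithelial, 4 of 5 endothelial and 3 of 5 immune markers were found, with median percentiles of 16.0, 5.67 and 4.82. KRT8, an epithelial keratin gene, stood highest among these 3 lists at the 73.2th percentile. Summed over loci, the mesenchymal list ranged from 772 to 880 CPM in unstimulated, 579 to 745 in DMSO and 485 to 726 in belinostat libraries, and the immune list from 114 to 129, 99.99 to 116 and 98.4 to 119 CPM.

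In unstimulated cells the member loci differed widely in accessibility per kb of peak. PDGFRB, a receptor for platelet-derived growth factors that marks fibroblasts and mural cells, was the most accessible at 27.4 ± 1.99 CPM per kb (SD, n = 6). DPP4, which encodes the peptidase CD26, followed at 19.4 ± 2.01 and PDGFRA, the other platelet-derived growth factor receptor, at 18.6 ± 1.17 CPM per kb. CLEC3B, which encodes the plasminogen-binding protein tetranectin, stood at 13.5 ± 0.683, CD55, a brake on the complement cascade, at 13.1 ± 1.58 and CD34, a sialomucin of vascular and stromal progenitors, at 11.0 ± 1.23 CPM per kb. DPT, which encodes the matrix protein dermatopontin, reached 4.93 ± 0.520 CPM per kb. PI16, the peptidase inhibitor that gives universal fibroblasts their best known marker, had 2.71 ± 0.460, MFAP5, a component of elastic microfibrils, 2.62 ± 0.445 and SFRP2, a secreted modulator of Wnt signaling, 1.92 ± 0.371 CPM per kb. Libraries did not overlap between PDGFRB and DPP4, between PDGFRA and CLEC3B, between CD34 and DPT, or between DPT and PI16. They overlapped between all other neighbors in this order. Against all coding loci, PDGFRB lay at the 89.4th percentile, and SFRP2, MFAP5 and PI16 at the 6.02th, 11.1th and 11.8th.

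Peaks at gene starts showed the same order in part. Those of PDGFRA and PDGFRB held 41.0 and 37.0 CPM per kb in unstimulated cells, that of CD55 28.4 and that of DPP4 15.5. MFAP5 had 5.24, DPT 4.31, CD34 3.62, SFRP2 2.33 and PI16 1.37 CPM per kb at the start, the last at the 1.66th percentile of coding starts. The start peak of PI16 lies at the first annotated start, with its centre at -6759 bp from the canonical one, and the peak nearest the canonical start was centred 678 bp inside the gene. CLEC3B had no peak within 500 bp of its first annotated start. The peak over its canonical start (chr3:45025930-45026460), which is outside the rule for named peaks and was looked up after the values were seen, held 6.55 CPM per kb. Several loci had their strongest peak away from the start. The strongest PDGFRB peaks were 12498 and 17025 bp inside the gene, at 66.4 and 62.7 CPM per kb, the strongest CD34 peak was 25757 bp inside at 23.9, and the strongest DPP4 peak was 1941 bp inside at 51.2 CPM per kb. All 16 CLEC3B peaks lie within the locus of EXOSC7, all 23 PDGFRA peaks within a longer readthrough gene, 4 PDGFRB peaks in the windows of CSF1R or CDX1 and 1 MFAP5 peak in that of RIMKLB, so their counts cannot be given to a single gene.

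**Figure D1:**
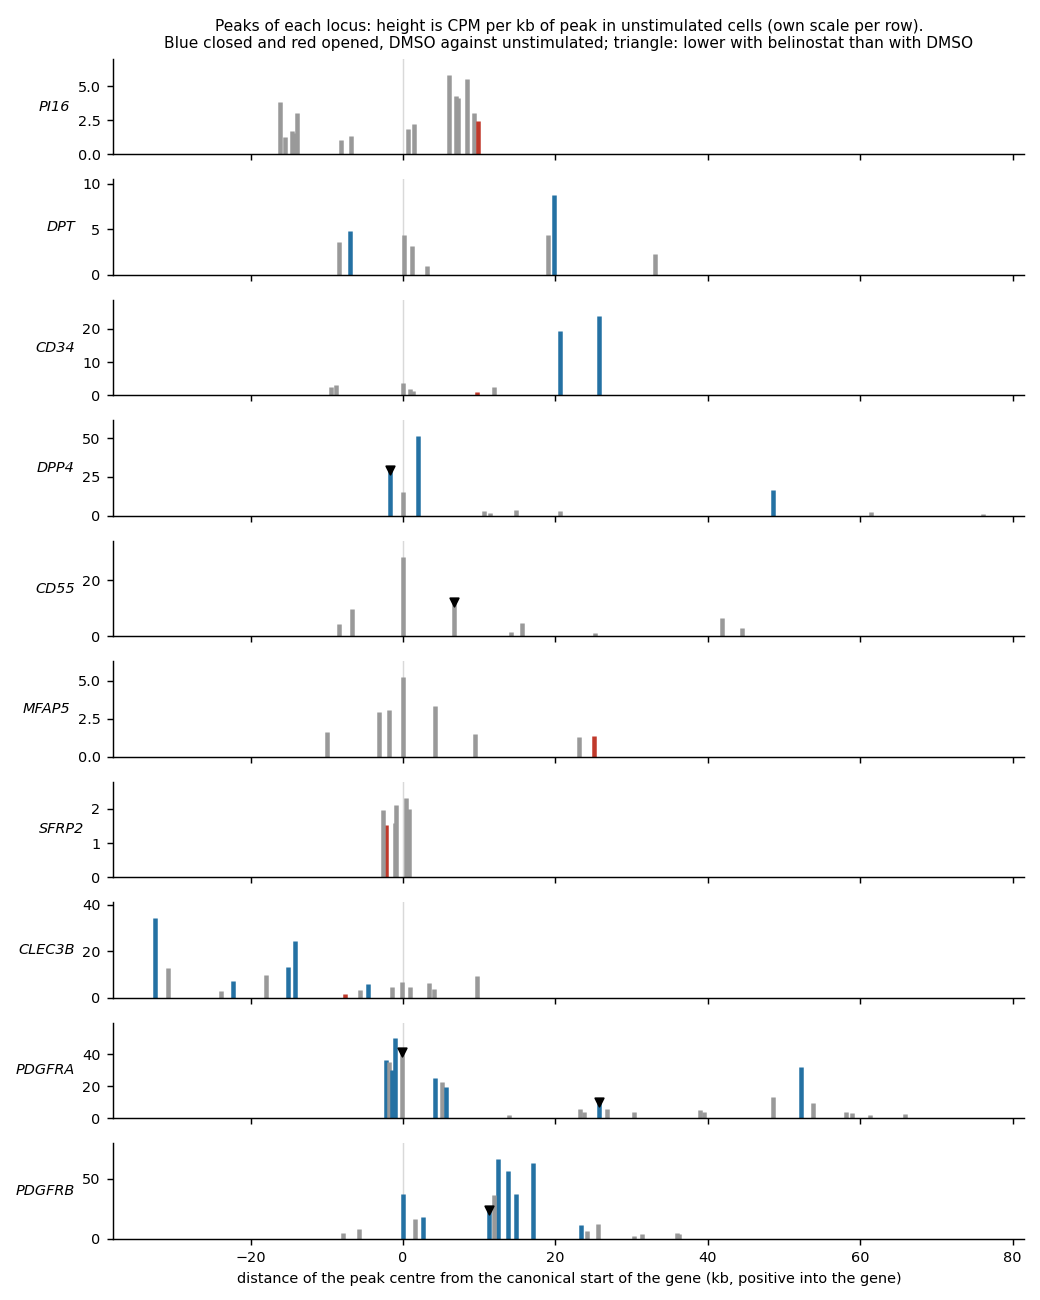
Each row is 1 locus and each bar 1 peak, at the distance of its centre from the canonical start in kb, with a height in CPM per kb of peak in unstimulated cells on a scale of its own. Blue bars closed and red bars opened in the cytokine contrast, and triangles mark the 5 peaks lower with belinostat than with DMSO, which lie at DPP4, CD55, PDGFRA (2 peaks) and PDGFRB.

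The sequences of 4 of the 5 peaks that closed with belinostat are shown because the belinostat results turn on them, together with the upstream part of the PDGFRA start, which is the fifth, and of the PI16 start, which did not pass the test. All are read 5′ to 3′ on the plus strand of hg38. Capitals mark matches on either strand to 9 short words that transcription factor families are known to bind. The whole DPP4 peak lies upstream of the gene at chr2:162075834-162076080, inside the divergent transcript DPP4-DT, and matches TGANTCA (the AP-1 word) and CATCTG (an E-box).

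DPP4 upstream peak: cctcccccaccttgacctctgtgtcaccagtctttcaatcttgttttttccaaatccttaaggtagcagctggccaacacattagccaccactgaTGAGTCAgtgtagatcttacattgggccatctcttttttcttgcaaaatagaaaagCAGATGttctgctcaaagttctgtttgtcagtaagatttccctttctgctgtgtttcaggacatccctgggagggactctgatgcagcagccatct

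The central 300 bases of the CD55 peak, at chr1:207328184-207328483 in an intron, also hold an AP-1 word and an E-box.

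CD55 intronic peak: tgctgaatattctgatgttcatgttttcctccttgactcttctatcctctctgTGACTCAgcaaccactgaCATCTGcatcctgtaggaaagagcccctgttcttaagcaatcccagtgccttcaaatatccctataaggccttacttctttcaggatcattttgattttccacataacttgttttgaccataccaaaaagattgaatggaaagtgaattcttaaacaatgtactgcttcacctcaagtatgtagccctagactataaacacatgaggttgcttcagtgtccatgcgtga

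The central 300 bases of the PDGFRA intronic peak, at chr4:54254868-54255167, hold a single match, GGGCGG (the GC box).

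PDGFRA intronic peak: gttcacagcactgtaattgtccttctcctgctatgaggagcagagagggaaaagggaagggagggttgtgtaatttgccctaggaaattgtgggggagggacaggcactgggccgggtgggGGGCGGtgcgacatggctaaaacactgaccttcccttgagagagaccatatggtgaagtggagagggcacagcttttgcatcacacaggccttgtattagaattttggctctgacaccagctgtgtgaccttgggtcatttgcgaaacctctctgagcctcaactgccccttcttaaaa

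The PDGFRB intronic peak, at chr5:150144358-150144653, holds the E-box and GGAATG (the TEAD word).

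PDGFRB intronic peak: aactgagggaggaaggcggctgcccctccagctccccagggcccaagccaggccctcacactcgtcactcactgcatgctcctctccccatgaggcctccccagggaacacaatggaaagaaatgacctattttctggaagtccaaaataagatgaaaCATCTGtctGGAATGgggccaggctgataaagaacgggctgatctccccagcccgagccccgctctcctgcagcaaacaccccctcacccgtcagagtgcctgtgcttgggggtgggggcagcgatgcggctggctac

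The stretch before the first annotated PDGFRA exon, taken from the RefSeq promoter and lying inside the start peak at chr4:54229043-54229279, holds an AP-1 word.

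PDGFRA upstream of the start: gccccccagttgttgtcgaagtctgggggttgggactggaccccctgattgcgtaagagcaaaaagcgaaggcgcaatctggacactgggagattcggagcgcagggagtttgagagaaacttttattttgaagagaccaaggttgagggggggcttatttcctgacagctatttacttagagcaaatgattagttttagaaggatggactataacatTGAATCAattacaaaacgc

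The matching stretch at PI16, chr6:36948046-36948262, holds TGTGGT (the RUNX word).

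PI16 upstream of the start: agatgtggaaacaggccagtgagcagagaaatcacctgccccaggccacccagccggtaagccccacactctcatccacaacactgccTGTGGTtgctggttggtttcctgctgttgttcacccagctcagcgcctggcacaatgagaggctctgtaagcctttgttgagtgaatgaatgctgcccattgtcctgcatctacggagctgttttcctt

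These words are common. In 300-bp windows centred on each peak, the AP-1 word was in 23 of 122 member peaks (18.9%) and 17.8% of all peaks, the E-box in 37 (30.3%) and 25.9%, the TEAD word in 33 (27.0%) and 21.3%, the RUNX word in 26 (21.3%) and 22.6%, and the GC box in 18 (14.8%) and 11.41%. TTCNNNGAA (the STAT word) was in 10 member peaks (8.20%) and 8.70% of all peaks, and the NF-kB word in 1 member peak and 1.31% of all. TTGCGCAA (the CEBP word) and TGACGTCA (the cAMP response element) were in 0 member windows and in 0.0696% and 0.300% of all windows. Of the 5 peaks that closed with belinostat, 4 held the E-box, 3 the AP-1 word and 2 the GC box in that window. Among 35116 RefSeq promoters, 6.57% held the AP-1 word and 11.0% the RUNX word in the 250 bases before the start. RefSeq promoters were matched for 9 of the 10 genes. These are matches of letters and not measured binding.

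The cytokine contrast asked what stayed changed after the pulses. In edgeR's quasi-likelihood test with Benjamini-Hochberg adjustment, 6 of the 10 loci fell and 2 rose at an adjusted p under 0.05. The background was large, since 62.5% of all coding loci fell and 10.9% rose and the median of all loci was -0.26 on the log2 scale. The members' median was -0.32. A count of 6 in 10 falling is close to that background and says nothing particular about these genes. The rising loci, PI16 and SFRP2, belong to the least accessible members. Under loess offsets 1598 of all 19188 coding loci fell and 2695 rose. Of the members 1 locus fell, PDGFRB, and 2 rose, PI16 and CD55. The values of CD34 (-0.06, adjusted p = 0.627), DPT (-0.16, adjusted p = 0.102), CLEC3B (-0.08, adjusted p = 0.201) and PDGFRA (-0.08, adjusted p = 0.134) then did not pass. Every member peak that opened or closed in the cytokine contrast under TMM, except 1 CLEC3B peak, did not pass under loess offsets.

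**Figure D2:**
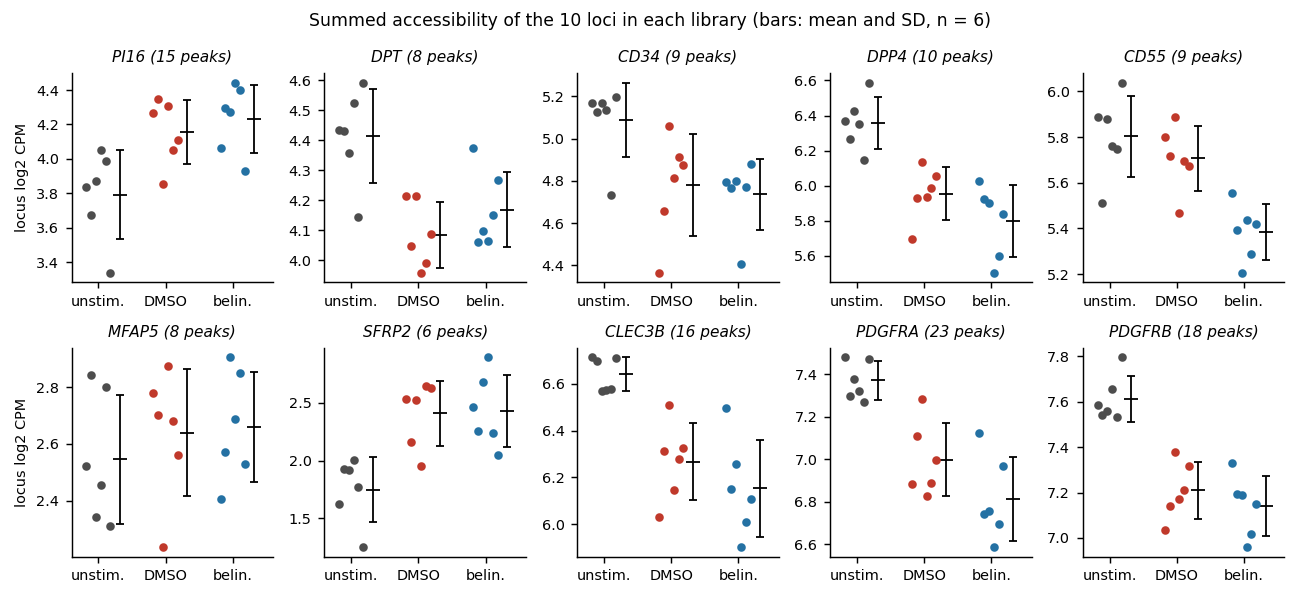
Each panel shows the summed counts of 1 locus as log2 CPM in each of the 18 libraries, with the mean and SD of the 6 libraries of a group beside them. DPP4, CLEC3B and PDGFRB of unstimulated libraries lie above every DMSO library, and PI16 and SFRP2 lie higher after the pulses under this scaling (PI16 turns to -0.09 with TMM over the weaker 50% of peaks). The belinostat mean is the lowest of the 3 at CD34, DPP4, CD55, CLEC3B, PDGFRA and PDGFRB, and at each of them belinostat and DMSO libraries overlap.

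Among the surface markers, PI16 was the locus that rose. Its unstimulated libraries ranged from 3.34 to 4.05 log2 CPM (median 3.85) and its DMSO libraries from 3.85 to 4.34 (median 4.19). The ranges overlapped, and the rise was 0.35 ± 0.11 (SE) with an adjusted p of 0.00620 by edgeR, 0.61 above the median of all loci. Under loess offsets it was 0.52 (adjusted p = 0.00520 by edgeR), and with TMM over the weaker 50% of peaks, a scaling that lowers the median of all loci to -0.73, it was -0.09. At PI16, 0 of the 15 peaks passed under loess offsets, which for peaks follow peak abundance. The median of its 15 peaks was 0.41, and that of all peaks with an average log2 CPM under 1 was 0.40. The PI16 peaks from 36938314 and 36963669, outside the rule for named peaks, are stronger, with averages of 1.49 and 1.42. They had 0.17 and 0.54 (adjusted p = 0.588 and 0.0672 by edgeR), where all peaks with an average between 1 and 3 had a median of -0.20. Of the 15, only the peak at chr6:36964546-36964716, in a non-coding exon part, opened (1.13 ± 0.40, adjusted p = 0.0346). This peak held 5.39 counts per library on average, and its call was lost without any 1 of 6 libraries (unstimulated 2, 4 or 5 and DMSO 1, 2 or 6, adjusted p up to 0.107 by edgeR).

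CD34 fell. Unstimulated libraries ranged from 4.73 to 5.20 log2 CPM (median 5.15) and DMSO libraries from 4.36 to 5.06 (median 4.84), with overlap. The change was -0.31 ± 0.10 (adjusted p = 0.00674 by edgeR), 0.05 below the median of all loci. Its strongest peak, at chr1:207885053-207885683, closed by -0.51 ± 0.13 (adjusted p = 0.00245). The start peak had -0.09 ± 0.26 (adjusted p = 0.836), and 1 other CD34 peak closed and 1 opened.

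DPP4 fell, with every DMSO library below every unstimulated one. It ranged from 6.15 to 6.59 log2 CPM (median 6.36) in unstimulated and from 5.69 to 6.13 (median 5.96) in DMSO libraries, without overlap. The change was -0.40 ± 0.09 (adjusted p = 0.000529 by edgeR), 0.15 below the median of all loci, and -0.11 (adjusted p = 0.0951) under loess offsets. Its strongest peak, at chr2:162071788-162072760 in an intron, closed by -0.45 ± 0.11 (adjusted p = 0.00186), with unstimulated libraries at 5.44 to 5.91 and DMSO libraries at 4.71 to 5.40. The start peak had -0.24 ± 0.17 (adjusted p = 0.317).

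CD55 did not pass. It ranged from 5.51 to 6.04 log2 CPM (median 5.82) in unstimulated and from 5.47 to 5.89 (median 5.70) in DMSO libraries, a change of -0.10 ± 0.08 (adjusted p = 0.269 by edgeR). It lay 0.16 above the median of all loci, and its sign turned with the scaling, to 0.12 with library totals and to a rise of 0.19 (adjusted p = 0.0260 by edgeR) under loess offsets. Its start peak, at chr1:207320989-207322287 with a mean of 230.2 counts per library, had -0.10 ± 0.11 under TMM (adjusted p = 0.526) and 0.29 (adjusted p = 0.00151) under loess offsets. Peaks as strong as this one had a median of -0.37.

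Among the secreted and matrix genes, SFRP2 rose most. Its libraries ranged from 1.25 to 2.00 log2 CPM (median 1.85) when unstimulated and from 1.95 to 2.65 (median 2.53) with DMSO, and they overlapped narrowly. The change was 0.67 ± 0.18 (adjusted p = 0.00190 by edgeR), 0.93 above the median of all loci. Weak peaks had positive values in general, with the median of 0.40 given above. The locus held 558 counts in all 18 libraries together, and the call was lost under loess offsets (0.42, adjusted p = 0.0715) and with TMM over the weaker 50% of peaks (0.24, adjusted p = 0.202). The peak at chr4:153791134-153791540, upstream of the gene, opened by 0.95 ± 0.34 (adjusted p = 0.0355), and leaving out any 1 of 6 libraries (unstimulated 1, 2 or 6 and DMSO 1, 2 or 5) ended that call.

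DPT fell by -0.34 ± 0.09 (adjusted p = 0.00138 by edgeR), from 4.14 to 4.59 log2 CPM (median 4.43) in unstimulated to 3.96 to 4.21 (median 4.07) in DMSO libraries, with overlap. Its strongest peak, at chr1:168708970-168709814 in an intron, closed by -0.52 ± 0.15 (adjusted p = 0.0114). That peak ranged from 2.74 to 3.22 in unstimulated and from 2.31 to 2.56 in DMSO libraries, and without unstimulated 6 its adjusted p was 0.0504 by edgeR. MFAP5 ranged from 2.31 to 2.84 (median 2.49) and from 2.24 to 2.87 (median 2.69), and its change of 0.10 ± 0.14 (adjusted p = 0.512 by edgeR) did not pass and turned to -0.08 under loess offsets. The MFAP5 start peak had -0.58 ± 0.24 (adjusted p = 0.0715). An intronic peak of MFAP5 at chr12:8637531-8637997 opened by 1.08 ± 0.33 (adjusted p = 0.0144), a call that was lost without DMSO 4 (0.88, adjusted p = 0.0860 by edgeR).

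CLEC3B fell by -0.37 ± 0.08 (adjusted p = 0.000685 by edgeR), from 6.57 to 6.71 log2 CPM (median 6.64) to 6.03 to 6.51 (median 6.29), without overlap. All 5 CLEC3B peaks that closed lay upstream of the canonical start, in sequence that EXOSC7 shares. The peaks at chr3:45010802-45011593 and chr3:45011707-45012596, both in introns, closed by -0.64 ± 0.14 (adjusted p = 0.000887) and -0.61 ± 0.12 (adjusted p = 0.000167). Their unstimulated libraries lay at 3.34 to 3.61 and 4.27 to 4.74 log2 CPM, above DMSO libraries at 2.24 to 3.26 and 3.37 to 4.14. The peak over the canonical start had 0.26 ± 0.18 (adjusted p = 0.294), where peaks of its strength had a median of -0.21.

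Both receptor loci fell. PDGFRA ranged from 7.27 to 7.48 log2 CPM (median 7.35) in unstimulated and from 6.83 to 7.28 (median 6.94) in DMSO libraries, with a narrow overlap. The change was -0.37 ± 0.08 (adjusted p = 0.000645 by edgeR). PDGFRB ranged from 7.53 to 7.80 (median 7.57) and from 7.03 to 7.38 (median 7.19), without overlap, a change of -0.40 ± 0.07 (adjusted p = 0.000198 by edgeR). Relative to the median of all loci these were -0.11 and -0.14. At PDGFRB, 8 of 18 peaks closed and 0 opened, and at PDGFRA 7 of 23 closed and 0 opened. The PDGFRB start peak (chr5:150155396-150156223) closed by -0.41 ± 0.11 (adjusted p = 0.00526), and the PDGFRA start peak (chr4:54228900-54229419) did not pass at -0.11 ± 0.12 (adjusted p = 0.522). Of the loci that fell, PDGFRB kept its call under loess offsets (-0.11, adjusted p = 0.0139) unlike the other 5.

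Over all member peaks 27 closed and 5 opened in the cytokine contrast, 22.1% and 4.10% of the 122, where 9.73% and 9.51% of all peaks did so. Of the 32, 12 had groups without overlap, a count for which no share over all peaks was taken. The calls followed peak strength. In the 20 member peaks with an average log2 CPM of 3 or more 17 closed, where 66.5% of all such peaks closed. Of the 31 peaks between 1 and 3, 9 closed and 0 opened, against 16.4% and 3.80% of all. Of the 71 weaker peaks, 5 opened and 1 closed, against 12.2% and 0.801%. In all, 73 of the 122 peaks lay below the median of the bin of their strength and 49 above, with a median difference of -0.09. Under loess offsets 6379 of all 334857 peaks closed and 6709 opened. Of the member peaks 1 closed and 1 opened under them, the latter the CD55 start peak. So 26 of the 27 closings and all 5 openings under TMM did not pass. The closed one, a CLEC3B intronic peak at chr3:45021626-45021867 that was singled out after its values were seen, had -0.99 ± 0.32 under TMM (adjusted p = 0.0203 by edgeR) and -1.23 (adjusted p = 0.0118) under loess offsets.

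**Figure D3:**
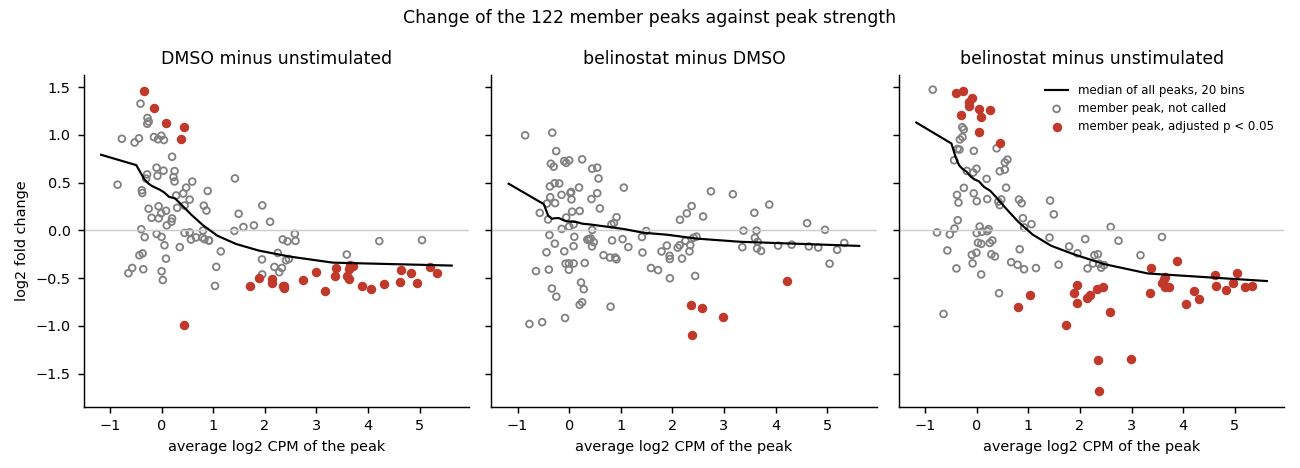
Each point is 1 of the 122 member peaks, with its average log2 CPM on the horizontal and its log2 fold change on the vertical axis, filled where the adjusted p is under 0.05. The black line is the median of all 334857 peaks in 20 bins of strength, and in the middle panel the 5 called peaks lie below it.

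The belinostat contrast asked what the inhibitor changed in cells that had all received the pulses. At the adjusted p, 5 of 122 member peaks closed (4.10%) and 0 opened, where 1.75% and 0.607% of all peaks did so. By strength, 1 of the 20 strongest closed against 9.81% of all such peaks, 4 of the 31 with an average log2 CPM between 1 and 3 against 3.99%, and 0 of the 71 weaker ones against 0.127%. By DESeq2 6 closed and 0 opened, where 6335 and 1313 of 334853 peaks did so. Without adjustment, 12 had p under 0.05 with a lower and 7 with a higher value, and no such count was taken over all peaks. The 5 closed peaks lay at 4 loci, DPP4, CD55, PDGFRA and PDGFRB, and each also closed under loess offsets.

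The DPP4 peak centred at -1742 bp from the canonical start, whose sequence is given above, changed most. It ranged from 2.53 to 3.11 log2 CPM (median 2.96) in unstimulated, from 1.81 to 2.82 (median 2.35) in DMSO and from 0.82 to 1.72 (median 1.36) in belinostat libraries. Every belinostat library lay below every DMSO library. The change with belinostat was -1.10 ± 0.20 (adjusted p = 5.13e-05 by edgeR), and the residual change was -1.69 ± 0.19 (adjusted p = 1.13e-13). Its cytokine change was -0.59 ± 0.15 (adjusted p = 0.00448), a call lost under loess offsets (-0.34, adjusted p = 0.148) and with library totals (-0.37, adjusted p = 0.0509 by edgeR). Peaks of its strength had belinostat and residual medians of -0.09 and -0.35. The DPP4 start peak had -0.11 ± 0.18 with belinostat (adjusted p = 0.791).

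The PDGFRA intronic peak (chr4:54254499-54255536), 25724 bp inside the gene, ranged from 3.28 to 3.63 log2 CPM in unstimulated, 2.58 to 3.40 in DMSO and 1.61 to 2.29 in belinostat libraries. The groups DMSO and belinostat did not overlap, and the change was -0.91 ± 0.16 (adjusted p = 4.18e-05 by edgeR), with a residual change of -1.34 ± 0.16 (adjusted p = 1.75e-12). Its cytokine change of -0.43 ± 0.14 (adjusted p = 0.0176) did not pass under loess offsets (-0.13, adjusted p = 0.541) or with library totals (-0.22, adjusted p = 0.181 by edgeR). Belinostat 3 was the lowest library, and without it or any other library the call held. The PDGFRA start peak ranged from 4.31 to 4.56 in unstimulated, from 4.06 to 4.74 in DMSO and from 3.19 to 4.14 in belinostat libraries. DMSO and belinostat overlapped, the change was -0.53 ± 0.13 (adjusted p = 0.00518), and the call was lost without DMSO 3 (-0.42, adjusted p = 0.0674 by edgeR) and with TMM over the weaker 50% of peaks (-0.64, adjusted p = 0.134 by edgeR).

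The PDGFRB intronic peak (chr5:150144358-150144653) ranged from 2.46 to 3.15 log2 CPM in unstimulated, 2.03 to 2.47 in DMSO and 1.00 to 1.96 in belinostat libraries. Its belinostat change was -0.78 ± 0.19 (adjusted p = 0.00731 by edgeR) and -0.70 (adjusted p = 0.0147) under loess offsets. Its cytokine change was -0.58 ± 0.16 (adjusted p = 0.00534), a call lost under loess offsets (-0.34, adjusted p = 0.164) and with library totals (-0.36, adjusted p = 0.0588 by edgeR). The strongest PDGFRB peaks, at chr5:150143011-150143684 and chr5:150138509-150139131, had belinostat values of -0.20 ± 0.11 and 0.01 ± 0.11, and neither passed.

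The CD55 intronic peak (chr1:207328060-207328607) did not pass in the cytokine contrast. It ranged from 2.48 to 3.03 log2 CPM (median 2.81) in unstimulated and from 2.51 to 2.92 (median 2.78) in DMSO libraries, a change of -0.04 ± 0.15 (adjusted p = 0.886 by edgeR). Belinostat libraries lay at 1.68 to 2.23 (median 2.05), below every library of the other groups, and the change was -0.82 ± 0.17 (adjusted p = 0.000675).

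**Figure D4:**
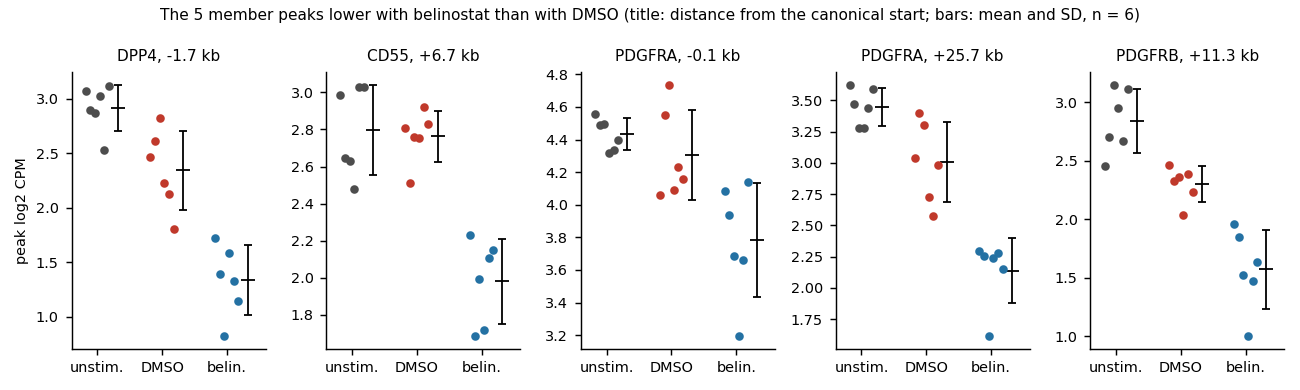
Log2 CPM of the 5 member peaks that closed with belinostat, 1 panel each, with points for the 18 libraries and bars for the mean and SD of 6. In 4 panels the belinostat libraries lie below all DMSO libraries, and at the PDGFRA start (middle panel) the groups overlap.

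At the level of whole loci, 1 of 10 fell with belinostat and 0 rose, where 2.04% and 0.125% of all coding loci did so. Without adjustment 2 had p under 0.05 with a lower value and 0 with a higher, and no such count was taken over all loci. By DESeq2 1 member locus fell and 0 rose, where 746 and 34 of all 19188 coding loci did so. The locus was CD55, which ranged from 5.21 to 5.56 log2 CPM (median 5.41) against 5.47 to 5.89 in DMSO libraries, with overlap. The change was -0.33 ± 0.09 (adjusted p = 0.0398 by edgeR), and the call was lost when DMSO 1, 2, 3 or 6 or any of belinostat 2 to 6 was left out, with adjusted p up to 0.154, and under loess offsets (-0.21, adjusted p = 0.0594). PDGFRA had -0.18 ± 0.08 (adjusted p = 0.200). Without belinostat 1 it fell (-0.25, adjusted p = 0.0175 by edgeR), as did 4335 of all 19188 coding loci, against 391 with all libraries. With all libraries PI16, DPT, MFAP5 and SFRP2 had changes between 0.02 and 0.09, with SE between 0.09 and 0.17. CD34, PDGFRB, CLEC3B and DPP4 had changes between -0.05 and -0.16. Of these 8, CD34, MFAP5, SFRP2, CLEC3B and PDGFRB changed sign under loess offsets.

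With loess offsets 3 member peaks opened with belinostat that did not pass under TMM, where 3163 of all 334857 peaks opened. All 3 had closed after the pulses under TMM and did not pass there under loess offsets, so neither fit called both a closing and an opening. The DPT intronic peak at chr1:168708970-168709814 rose by 0.50 (adjusted p = 0.0284 by edgeR; loess cytokine value -0.23, adjusted p = 0.326; TMM belinostat value 0.41 ± 0.16, adjusted p = 0.174). Its belinostat libraries ranged from 2.24 to 3.42 log2 CPM, across the ranges of both other groups. The CLEC3B intronic peak at chr3:45010802-45011593 rose by 0.50 (adjusted p = 0.0118; loess cytokine -0.33, adjusted p = 0.0881; TMM belinostat 0.38 ± 0.15, adjusted p = 0.182), with belinostat libraries at 2.52 to 3.76. The last, a PDGFRB intronic peak at chr5:150141872-150142180 outside the rule for named peaks, rose by 0.41 (adjusted p = 0.00919; loess cytokine -0.24, adjusted p = 0.125; TMM belinostat 0.27 ± 0.13, adjusted p = 0.298), with belinostat libraries at 3.44 to 4.18, DMSO at 3.05 to 3.94 and unstimulated at 3.82 to 4.35. The same DMSO libraries enter both contrasts.

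The residual contrast compared belinostat-treated cells with cells that never met the cytokines. Here 7 loci were lower and 2 higher, where 66.8% of all coding loci were lower and 13.0% higher. The loci are the same as in the cytokine contrast with CD55 added (-0.43 ± 0.09, adjusted p = 6.25e-05 by edgeR). SFRP2 stood 0.72 ± 0.18 higher (adjusted p = 0.000871), at 2.05 to 2.89 log2 CPM above every unstimulated library, and PI16 0.43 ± 0.11 higher (adjusted p = 0.00104), at 3.93 to 4.44. DPP4 was lowest relative to unstimulated cells at -0.56 ± 0.09 (adjusted p = 3.90e-06), with belinostat libraries at 5.50 to 6.02, followed by PDGFRA at -0.55 ± 0.08 (adjusted p = 2.32e-06). The median of all loci was -0.34. Under loess offsets DPP4 (-0.15, adjusted p = 0.0192) and PDGFRA (-0.13, adjusted p = 0.0101) stayed lower and PI16 (0.64, adjusted p = 0.000468) higher, and none of the other 7 passed. Of all 19188 coding loci, 3506 were lower and 3923 higher under that fit. At the level of peaks, 0 of the 15 PI16 peaks passed under loess offsets in this contrast.

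Among member peaks 32 were closed and 11 open relative to unstimulated cells (26.2% and 9.02%), against 13.7% and 16.8% of all peaks. By strength, 18 of the 20 strongest were closed, where 84.8% of all such peaks were. Of the 31 with an average log2 CPM between 1 and 3, 13 were closed, against 26.5% of all. All 11 opened peaks were among the 71 weakest, where 22.1% of all such peaks opened. PI16 held 4 of the opened peaks, all upstream of the canonical start except chr6:36964546-36964716. Under loess offsets 9 were closed and 1 open, against 16485 and 12785 of all 334857 peaks. Under TMM the CD55 peak at chr1:207314735-207315207, centred at -6707 bp from the start, had -0.76 ± 0.19 (adjusted p = 0.00147), and the PDGFRA peak at chr4:54281065-54281868 had -0.71 ± 0.12 (adjusted p = 1.63e-06). Neither passed under loess offsets (-0.51, adjusted p = 0.0711, and -0.19, adjusted p = 0.135).

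**Figure D5:**
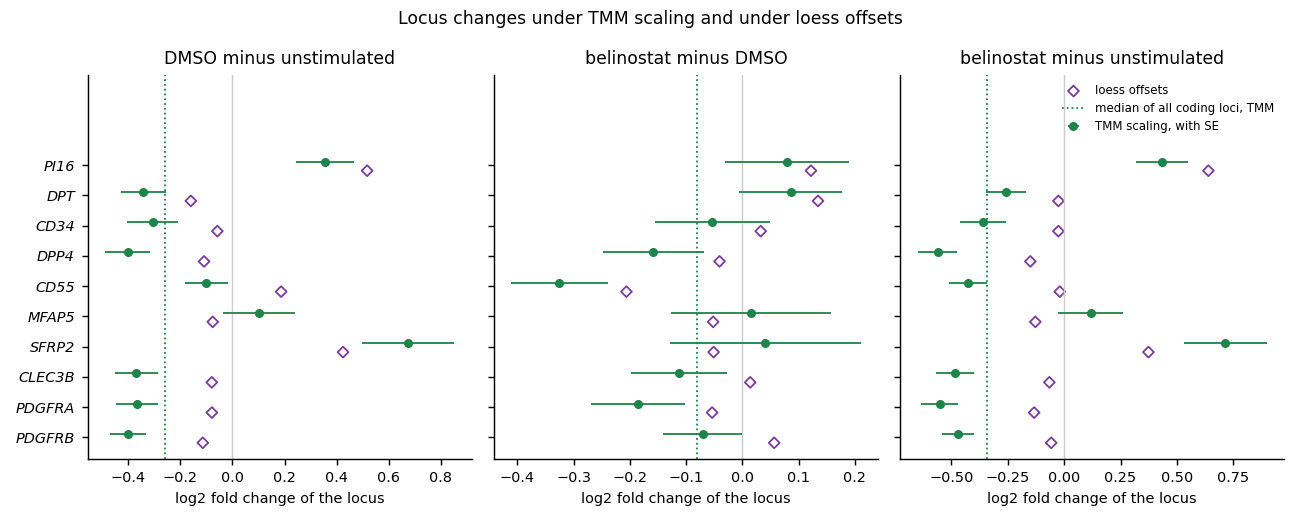
Log2 fold change of each locus in the 3 contrasts, as circles with SE under TMM scaling and as diamonds under loess offsets, with the median of all coding loci under TMM as a dotted line. In the cytokine panel the 6 falling loci lie near the dotted line at -0.26 under TMM and between -0.06 and -0.16 with loess offsets. CD55 with belinostat (-0.33, dotted line -0.08) and DPP4 and PDGFRA in the residual panel (-0.56 and -0.55, dotted line -0.34) lie left of it, and PI16 and SFRP2 lie to the right of 0 in the outer panels under both.

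Genes often named with these markers were given the same test. Of 21 related loci (among them COL14A1, COL15A1, C3, C7, IGFBP6, THY1, FBN1, SCARA5, OGN and ADH1B) 16 fell and 1 rose in the cytokine contrast, 2 fell and 0 rose with belinostat, and 17 were lower and 1 higher in the residual contrast. Of all coding loci, 62.5% fell and 10.9% rose, 2.04% fell and 0.125% rose, and 66.8% were lower and 13.0% higher in these contrasts. Medians of the related loci were -0.29, -0.11 and -0.42, beside -0.26, -0.08 and -0.34 for all loci. Under loess offsets 6 of the related loci fell and 4 rose in the cytokine contrast, where 1598 of 19188 coding loci fell and 2695 rose. PCOLCE2, an enhancer of procollagen processing, rose by 0.34 (adjusted p = 0.00522 by edgeR). OGN, which encodes the small matrix proteoglycan osteoglycin, fell by -0.69 and again by -0.60 with belinostat (adjusted p = 0.0152), and C7, a terminal complement component, fell by -0.46 with belinostat (adjusted p = 0.00899). Both of these belinostat falls also passed under loess offsets. Beside the same 62.5% and 10.9% of all loci in the cytokine contrast, 8 of 9 mesenchymal loci fell and 0 rose, 4 of 5 contractile loci fell and 0 rose, 2 of 6 epithelial loci fell and 1 rose, 1 of 5 endothelial loci fell and 1 rose, and 3 of 5 immune loci fell and 2 rose. Under loess offsets 1 mesenchymal and 0 contractile, epithelial, endothelial or immune loci fell in the cytokine contrast. By the same fit 1 epithelial, 3 endothelial and 2 immune loci rose, and 0 mesenchymal or contractile loci. With belinostat under TMM, 2.04% of all loci fell. So did 1 mesenchymal and 1 endothelial locus, and none of the contractile, epithelial or immune loci passed.

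The coding loci whose log2 CPM across the 18 libraries was most like that of PI16, among those with no shared peak, were SLIT1 (Pearson r = 0.938), RASGEF1C (0.935), MYH6 (0.932), USH1C (0.932) and VIPR2 (0.928). These are descriptions over 18 libraries that share the trend with peak strength, and they carry no test.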

How the data were processed

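Omni-ATAC libraries of Ccd18-Co were processed by the authors with the ENCODE ATAC-seq pipeline on hg38 and MACS2 peak calling. The authors deposited raw counts per consensus peak, made with csaw, and scaled them on 10 kb background bins, whose counts were not analysed here. The alternative named TMM over 10 kb bins used the deposited peak counts summed per 10 kb, so it is not that background scaling. Peak starts were read as BED starts and raised by 1. Counts were fitted in edgeR 4.0.16 (R 4.3.3) by the quasi-likelihood test with TMM factors over all peaks and 1 mean per group over 18 libraries, with Benjamini-Hochberg adjustment of the p-values across all 334857 peaks. Locus sums (GENCODE 44, gene body with 10 kb upstream) were fitted likewise over 19188 coding loci, and log2 CPM used a prior count of 2. DESeq2 1.42.0, loess offsets (limma 3.58.1), other TMM sets, a filter, a replicate block, 3 kb windows and leaving out each library were alternatives.

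Totals of 4661678 to 11352032 counts per library set the precision, which is low for peaks of a few counts. Named peaks were the start peak within 500 bp of the annotated start, the strongest per kb, those with the smallest cytokine and belinostat p at each locus, and up to 6 called peaks per contrast without overlap and with the largest change. Members, lists and tests were chosen with earlier results of these data known.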

Additional observations from a re-analysis of the deposited data

Results flagged for a closer look

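In 10 of 138 groups of 6 libraries, 1 library stood apart from the other 5 by Dixon's criterion for a gap relative to the range, which chance meets in about 1 of 20 groups. All values are log2 CPM. At CD34, unstimulated 5 had 4.73 over the locus (the others 5.13 to 5.20) and 3.53 at the strongest peak, belinostat 4 had 4.40 over the locus, and belinostat 2 had -1.81 at the peak from 207899062. DMSO 4 had -0.953 at the PI16 peak from 36964546, and DMSO 1 had 4.71 at the strongest DPP4 peak. The MFAP5 start peak had 0.486 in unstimulated 3, and the SFRP2 peak from 153789886 had -1.04 in belinostat 1. At PDGFRA, unstimulated 2 had 3.69 at the peak from 54228108 and belinostat 3 had 1.61 at the peak from 54254499 (the others 2.15 to 2.29).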

How the results depend on the processing

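Counts of member calls depended mainly on the scaling. Median log2 changes of all coding loci in the cytokine contrast were -0.26 under TMM, -0.04 with library totals, -0.73 with TMM over the weaker 50% of peaks and -0.02 with loess offsets. In the cytokine contrast 5 member peaks opened, against 15 with library totals, 8 with TMM over 10 kb bins, 0 over the weaker 50%, 1 with loess, 2 by DESeq2 and 3 with average log2 CPM over 0. Of all 334857 peaks 31861 opened, against 54265, 36503, 7371 and 6709 with totals, bins, the weaker 50% and loess. By DESeq2 20256 of 334853 opened, and with the filter 17406 of 200098. The 27 closed member peaks became 9, 42 and 1 with totals, the weaker 50% and loess. Member loci raised fell from 2 to 0 with the weaker 50%, and those lowered from 6 to 1 with loess. Over all peaks the 32570 closed became 10894, 85712 and 6379. Over all coding loci the 2084 raised became 351 with the weaker 50%, and the 12002 lowered became 1598 with loess. With belinostat 2 member peaks opened with totals and 3 with loess, against 0, and 0 member loci were lowered with the weaker 50% and with loess, against 1. Over all peaks 3673 and 3163 opened, against 2034. Over all coding loci 5 were lowered with the weaker 50% and 506 with loess, against 391. In the residual contrast 11 opened member peaks became 24, 0, 1 and 5 with totals, the weaker 50%, loess and the filter, and 32 closed became 17, 56 and 9. Over all peaks 56111 opened became 101897, 8787, 12785 and 25293, and 45962 closed became 21124, 103461 and 16485. Member loci raised went from 2 to 0 and 1 with the weaker 50% and loess, and those lowered from 7 to 4 and 2 with totals and loess. Over all coding loci 2487 raised became 301 and 3923, and 12810 lowered became 5652 and 3506. The cause was not tested.

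Leaving out 1 library gave 2 to 7 opened and 20 to 30 closed peaks in the cytokine contrast, 4 to 7 closed with belinostat, and 4 to 15 opened and 28 to 36 closed in the residual contrast. Opened cytokine peaks were 3 without unstimulated 1 or 6 and 2 without DMSO 1, 2 or 4, and opened residual peaks 7 without belinostat 4 and 4 without belinostat 5. Of all 334857 peaks, 18497 to 35956 opened and 20700 to 37123 closed in the cytokine contrast. With belinostat 3900 to 8703 closed, and in the residual contrast 37404 to 65269 opened and 38926 to 50162 closed. Member loci lowered with belinostat ranged from 0 to 2, with 0 without DMSO 1, 2, 3 or 6 or belinostat 2 to 6 and 2 without belinostat 1. Of all 19188 coding loci, the number lowered ranged from 101 without DMSO 3 to 4335 without belinostat 1. The other member locus counts held.

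Signs turned as follows (log2 changes). With TMM over the weaker 50%, PI16 had -0.0925, -0.0517 and -0.144 in the cytokine, belinostat and residual contrasts, MFAP5 -0.352, -0.117 and -0.469, and DPT and SFRP2 -0.0309 and -0.102 with belinostat. With library totals, residual DPT was 0.0488, cytokine CD55 0.117, and belinostat CD34 and PDGFRB 0.0379 and 0.0152. With loess, cytokine CD55 was 0.187, MFAP5 -0.0759, -0.0519 and -0.128 in the 3 contrasts, and belinostat CD34, SFRP2, CLEC3B and PDGFRB 0.0326, -0.0511, 0.014 and 0.0567. Residual loess values were 0.0242 for the DPP4 peak from 162071788, 0.142 for the CD55 peak from 207320989, 0.0843 for the PDGFRA peak from 54232846, 0.025 for the PDGFRB peak from 150138509 and 0.00825 for that from 150143011, whose cytokine value was 0.0152. With 3 kb upstream MFAP5 had -0.169 with belinostat and -0.005925 in the residual contrast. Leaving out 1 library moved belinostat values from -0.127 to 0.011 at CD34, from -0.0453 to 0.0711 at MFAP5 and from -0.0866 to 0.121 at SFRP2.

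Libraries with the same replicate number had correlations of -0.183 to 0.151 over 18 pairs, 5 over 0.1. Pairs of unlike number were not compared, so whether the numbers pair the libraries was not tested. With the replicate block 28 member peaks closed in the cytokine and 6 in the belinostat contrast, and the other member counts were as without it. Over all coding loci the block gave 57 raised and 1011 lowered with belinostat, against 24 and 391. Loess called 6709 peaks opened and 6379 closed in the cytokine contrast, against 31861 and 32570. Peaks with few counts limit what can be seen at PI16, MFAP5 and SFRP2.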
